A study of Mus musculus with 8 samples.

Results

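Expression of 10 genes of phytosphingosine breakdown and fatty acid alpha-oxidation (Hacl1, Ilvbl, Phyh, Aldh3a2, Aldh3b1, Pecr, Slc27a2, Acsl3, Acsl4 and Acsl5) was examined in epithelial cells of the mouse distal colon. The genes were taken by symbol from a table of 54141 genes measured by RNA-seq. All 10 were found, and all 10 were among the 16132 genes that passed the filter on low counts. The libraries were 4 of wild type (WT) and 4 of the Degs2 homozygous mutant (Degs2_KO), all from the c57bl6/j strain. The epithelium had been released from pieces of distal colon with EDTA and strained. The labels used here name no age, sex, treatment or altered part of Degs2. Separate mice for the libraries are not stated either, so a p-value here measures the spread between libraries, which may be technical.

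Degs2 encodes the desaturase and hydroxylase that makes phytoceramides, from which ceramidases release phytosphingosine. Phytosphingosine is broken down after phosphorylation by a sphingosine kinase and cleavage by the lyase Sgpl1, which leaves a 2-hydroxy fatty aldehyde. Fatty aldehyde dehydrogenases oxidize this aldehyde to a 2-hydroxy fatty acid, acyl-CoA synthetases activate the acid, and the 2-hydroxyacyl-CoA lyases Hacl1 and Ilvbl split off a formyl group, so that an odd-chain product one carbon shorter remains. Branched phytanic acid from chlorophyll takes a parallel route in peroxisomes, where Phyh places the hydroxyl group before Hacl1 acts.

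Degs2 lay between 106 and 151 CPM (counts scaled to the size of the library) in the WT libraries and between 47.7 and 65.9 CPM in the Degs2_KO libraries, without passing edgeR's test over all genes (adjusted p = 0.796). Scaled totals were 41622927 to 44606092 estimated counts per library. WT replicate 1 and Degs2_KO replicate 3 stood apart from the others on the first principal component, which held 50.3% of the variance (-53.9 and -59.1 against -1.09 to 43.0). In these libraries Hoxd13, a homeobox gene of the most distal gut, was at 0.699 and 0.312 CPM, against 38.8 to 85.3 CPM in the other 6. The ileal bile acid transporter gene Slc10a2 was at 101 and 70.3 CPM there and at 2.11 to 11.7 CPM in the other 6. Of the other markers of small intestine and proximal gut, Fabp2, Fabp6, Sis and Osr2 were also highest in these libraries. Apob (179 and 108 CPM against 85.9 to 244 CPM), Gata4, Apoa1, Apoa4, Lct and Onecut2 were not. Epithelial markers (10 of 10 measured) summed to between 13638 and 17495 CPM per library. Fibroblast markers summed to 1.33 to 30.8 CPM, T cell markers to 6.85 to 29.3 CPM and myeloid markers to 4.75 to 8.23 CPM. Of 15 marker lists, 0 separated the genotypes.

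The 10 genes spanned a wide range of levels, with Phyh at the top and Hacl1 at the bottom. Levels of different genes were compared as CPM per kb of the union of annotated exons. In WT the mean was 79.1 ± 6.16 CPM per kb (SD, n = 4) for Phyh and 61.0 ± 8.21 for Acsl3. It was 28.0 ± 1.76 for Acsl5, 22.6 ± 2.35 for Aldh3a2 and 11.3 ± 2.13 for Ilvbl. The remaining 5 genes were low, with Acsl4 at 4.65 ± 0.18, Pecr at 4.22 ± 0.81, Aldh3b1 at 2.998 ± 1.07, Slc27a2 at 1.82 ± 0.39 and Hacl1 at 1.099 ± 0.13 CPM per kb. The WT ranges of Acsl5 and Aldh3a2 overlapped, as did those of Acsl4 and Pecr, of Pecr and Aldh3b1, and of Aldh3b1 and Slc27a2 across libraries. Within single libraries the order was steadier: each gene exceeded the next in all 8 libraries, except that Acsl4 exceeded Pecr in 7 of 8. The order of the means was the same in Degs2_KO. With the longest annotated transcript as the length, 6 of the 10 genes kept their place, and Acsl5 and Aldh3a2, and Acsl4 and Pecr, changed places.

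**Figure D1:**
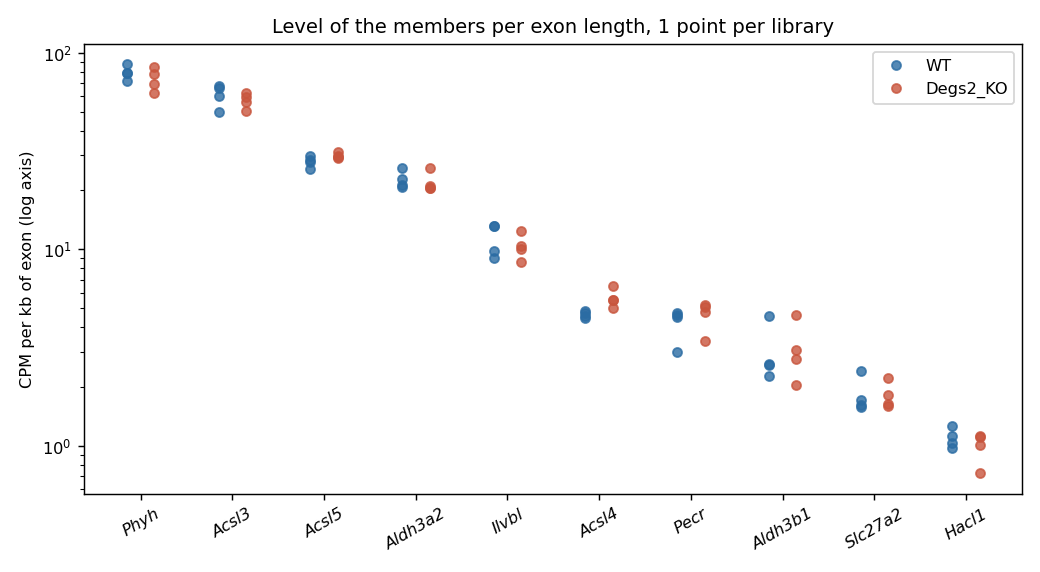
Level of each gene in CPM per kb of exon (log axis), 1 point per library, WT in blue and Degs2_KO in red, ordered by the WT mean. Phyh and Acsl3 lie highest, Hacl1 lowest, and the genotypes lie close together for each gene.

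Between the genotypes, none of the 10 genes passed the test. By edgeR (quasi-likelihood test, Benjamini-Hochberg adjusted p under 0.05 over all genes) 0 of the 10 were called, beside 0 of 16132 genes in all (0.0%). DESeq2 called 0 of the 10 and 0.0124% of all genes, and edgeR with 1 surrogate variable 0 of the 10 and 0.0062%. Of the 10, 4 had a log2 fold change (Degs2_KO over WT) above 0 and 6 below, with a median of -0.02. Over all tested genes 47.4% were above 0, 52.6% were below, and the median was -0.01. At an unadjusted p under 0.05 there was 1 of the 10, Acsl4, beside 183 of all genes (1.13%). The measurement was narrow for most of these genes: 9 of the 10 had a 95% interval no wider than 1.5-fold in either direction (60.4% of all tested genes), and all 10 had one within 2-fold (81.9%). Only Aldh3b1 had an interval beyond 1.5-fold, from 0.652 to 1.66 times the WT level. The counting error expected from the number of fragments was 0.988% of the level for Acsl3 and 6.82% for Hacl1 in WT, where the SD between libraries was 13.5% and 11.6%. For Acsl4 the counting error was 3.15% and the SD 3.91% in WT, against 2.76% and 10.97% in Degs2_KO. The part of counting in the spread of Acsl4 was not tested. Without WT replicate 1 the number of all genes at an unadjusted p under 0.05 was 782, and with Degs2_KO replicate 3 left out as well it was 650, while Acsl4 was the 1 member below 0.05 each time.

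**Figure D2:**
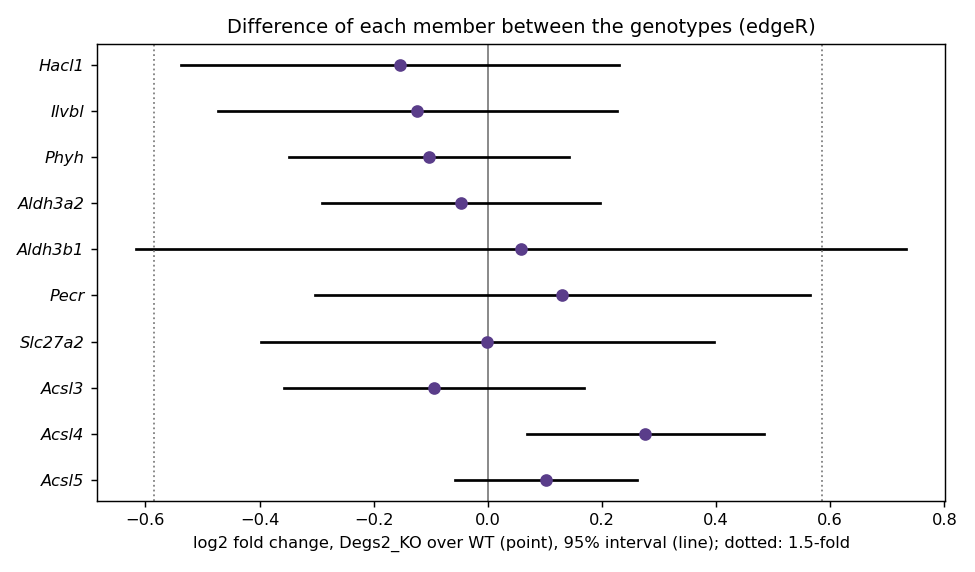
Log2 fold change of each gene (point) with its 95% interval (line) from edgeR, Degs2_KO over WT; dotted lines mark 1.5-fold. The interval of Acsl4 lies above 0, from 0.07 to 0.48, and the other 9 intervals include 0.

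The lyases carry out the carbon-removing step. Hacl1, the peroxisomal lyase, was at 5.57, 5.12, 6.26 and 4.796 CPM in WT replicates 1 to 4 and at 5.47, 3.58, 5.51 and 4.98 CPM in Degs2_KO replicates 1 to 4. Only Degs2_KO replicate 2 lay below the WT range, and the groups overlapped. edgeR's log2 fold change, Degs2_KO over WT, was -0.15 ± 0.17 (SE; 95% interval -0.54 to 0.23), and it was -0.03 without Degs2_KO replicate 2 and -0.08 without WT replicate 3. Reads over Hacl1 could also belong to Btd, which overlaps its start on the other strand and was at 9.49 to 12.3 CPM; Gm49387, which overlaps it on the same strand, was listed at 0 in every library.

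Ilvbl, the lyase of the endoplasmic reticulum, was at 57.7, 40.0, 43.5 and 58.0 CPM in WT and at 45.9, 38.2, 54.8 and 44.1 CPM in Degs2_KO. WT replicates 1 and 4 and Degs2_KO replicate 3 were the high libraries, and the groups overlapped. Ilvbl had a log2 fold change of -0.12 ± 0.15 (95% interval -0.47 to 0.23). Leaving out single libraries moved it from -0.22 (without Degs2_KO replicate 3) and -0.21 (WT replicate 2) to -0.05 (Degs2_KO replicate 2) and -0.04 (WT replicate 1 or 4). Per kb of exon, Ilvbl exceeded Hacl1 in every library, by 7.77 to 13.5 times, with a mean ratio of 10.4 ± 2.64 in WT and 10.6 ± 1.15 in Degs2_KO (SD, n = 4). Ilvbl thus held between 88.6% and 93.1% of the summed lyase level.

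The fatty aldehyde dehydrogenases act before and after the lyase step. Aldh3a2, the fatty aldehyde dehydrogenase whose loss causes Sjögren-Larsson syndrome, was at 145, 119, 117 and 128 CPM in WT and at 115, 114, 145 and 118 CPM in Degs2_KO. The 2 highest libraries were WT replicate 1 and Degs2_KO replicate 3, which hardly differed, and the other 6 lay between 114 and 128 CPM. Between the genotypes it had a log2 fold change of -0.05 ± 0.11 (95% interval -0.29 to 0.20).

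Aldh3b1, a related dehydrogenase of fatty aldehydes at the plasma membrane, was at 9.37, 5.24, 4.61 and 5.32 CPM in WT and at 6.31, 5.65, 9.45 and 4.15 CPM in Degs2_KO. The same 2 libraries were high again, 1 in each genotype, and the groups overlapped. Its log2 fold change of 0.06 ± 0.30 was below 0 when WT replicate 2, 3 or 4 or Degs2_KO replicate 3 was left out (-0.19 without the last). Aldh3b1 had the widest spread of the 10 genes, with the highest library at 2.28 times the lowest, against a median of 1.57 times over all tested genes.

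Of the summed level per kb of 5 Aldh3 genes, Aldh3a2 held 68.6%, 71.3%, 71.8% and 74.7% in WT and 67.8%, 68.5%, 68.1% and 67.3% in Degs2_KO. The shares did not overlap, with WT replicate 1 and Degs2_KO replicate 2 nearly equal, but this ratio was chosen after its values were seen and was not tested. Aldh3b2, a close relative beside Aldh3b1, held 18.998 ± 1.59% in WT and 22.4 ± 2.61% in Degs2_KO (SD, n = 4), and Aldh3a1 was listed at 0 in every library. Reads shared between close relatives such as the Aldh3b genes could be split between them by the counting.

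The enzymes of the phytanic acid branch showed no called difference. Phyh, the hydroxylase that is lost in Refsum disease, was at 149, 137, 148 and 165 CPM in WT and at 148, 118, 161 and 131 CPM in Degs2_KO. Degs2_KO replicates 2 and 4 lay below every WT library and the other two within the WT range. Phyh had a log2 fold change of -0.10 ± 0.11 (95% interval -0.35 to 0.14), which was -0.03 without Degs2_KO replicate 2, -0.05 without WT replicate 4 and -0.18 without Degs2_KO replicate 3.

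Pecr, the peroxisomal reductase that forms phytanoyl-CoA from phytol, was at 7.18, 6.86, 6.97 and 4.56 CPM in WT and at 5.15, 7.26, 7.70 and 7.88 CPM in Degs2_KO. WT replicate 4 and Degs2_KO replicate 1 were the low libraries, and 3 Degs2_KO libraries lay above every WT library. Its log2 fold change was 0.13 ± 0.19 (95% interval -0.30 to 0.56), and without WT replicate 4 it was 0.0002. In WT replicate 4 the markers of stem and dividing cells also had their lowest sum, 349 CPM against 508 to 694 CPM in the other 7 libraries, and fibroblast markers their highest, 30.8 CPM. Of the stem and dividing list, Mki67, Top2a, Mcm2, Pcna and Ascl2 were lowest in WT replicate 4, but Lgr5, Smoc2 and Olfm4 were not. Degs2_KO replicate 1, the other library low in Pecr, had the highest stem and dividing sum, 694 CPM. Mki67 was the only gene of the list highest there, at 406 CPM against 167 to 363 CPM in the other 7. Lgr5 and Smoc2 were at their lowest, 7.85 and 18.5 CPM, and the rest of the list lay within the range of the other libraries. The part of these cells in the Pecr values was not tested. In bulk samples, fewer cells of a type and less RNA per cell cannot be told apart.

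Slc27a2, the fatty acid transport protein that activates very long and branched fatty acids in peroxisomes, was at 8.96, 5.88, 6.40 and 6.01 CPM in WT and at 5.996, 6.14, 8.27 and 6.83 CPM in Degs2_KO. WT replicate 1 and Degs2_KO replicate 3 were again the 2 highest libraries. The group means were both 6.81 CPM, with a log2 fold change of -0.0006 ± 0.17 (95% interval -0.40 to 0.40). Its sign turned under 10 of the 18 alternatives, without a call. Slc27a2 held 5.70% to 8.21% of the summed level per kb of 6 Slc27a genes, of which Slc27a4 held 58.5% to 73.6%.

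Among the long-chain acyl-CoA synthetases, Acsl4 was the member whose genotypes separated. Acsl4, which prefers arachidonic acid and other polyunsaturated fatty acids, was at 26.3, 24.6, 24.1 and 25.6 CPM in WT and at 29.8, 27.2, 29.7 and 35.1 CPM in Degs2_KO. Each Degs2_KO library lay above each WT library, with Degs2_KO replicate 4 highest and a gap of less than 1 CPM between WT replicate 1 and Degs2_KO replicate 2. It was the only member without overlap, beside 168 of all tested genes (1.04%), 78 of them higher in Degs2_KO (0.484%). WT averaged 25.1 ± 0.98 CPM and Degs2_KO 30.5 ± 3.34 CPM (SD, n = 4). edgeR gave a log2 fold change of 0.28 ± 0.09, 1.21 times the WT level (95% interval 1.05 to 1.40), with an unadjusted p of 0.0147 and an adjusted p of 0.9996 over all genes. It did not pass. Over 18 alternatives the log2 fold change stayed between 0.20 and 0.33, lowest without Degs2_KO replicate 4, and the adjusted p was at least 0.879. This separation had been seen in earlier work on these data, so it is a description and not independent support.

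Acsl3, the synthetase of the endoplasmic reticulum and lipid droplets, was at 217, 297, 287 and 263 CPM in WT and at 261, 246, 270 and 220 CPM in Degs2_KO. WT replicate 1 was the lowest of all and the other 3 WT libraries were 3 of the 4 highest. For Acsl3 edgeR gave a log2 fold change of -0.09 ± 0.12 (95% interval -0.36 to 0.17). Without WT replicate 1 and Degs2_KO replicate 3 it was -0.22 ± 0.09, with an unadjusted p of 0.0517 and an adjusted p of 0.999 by edgeR, and the groups no longer overlapped for Acsl3 (lower in Degs2_KO) and Acsl4 (higher), 2 of the 10. Over all tested genes 9.46% did not overlap then, 5.09% lower and 4.37% higher in Degs2_KO. Utp14b, which lies within Acsl3 on the same strand, was at 43.4, 79.1, 84.7 and 62.0 CPM in WT and at 72.4, 53.3, 51.9 and 47.7 CPM in Degs2_KO. How the authors' counting divided reads between these overlapping genes is not stated in the sources.

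Acsl5, the synthetase that is abundant in intestinal epithelium, was at 135, 146, 124.8 and 138 CPM in WT and at 141, 146, 144 and 152 CPM in Degs2_KO. The Degs2_KO values fell in or just above the upper part of the WT range, and 2 of the 4 exceeded every WT library. Its log2 fold change was 0.10 ± 0.07 (95% interval -0.06 to 0.26). Acsl5 had the smallest spread of the 10 genes, with the highest library at 1.22 times the lowest, and 8.19% of all tested genes had a smaller SD of log2 CPM. Zdhhc6 overlaps it on the other strand and was at 37.4 to 46.7 CPM.

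The 5 Acsl genes kept similar proportions in both genotypes. Acsl3 held 62.6 ± 3.64% of their summed level per kb in WT and 59.0 ± 3.34% in Degs2_KO, and Acsl5 held 28.9 ± 2.71% and 31.1 ± 2.01% (SD, n = 4). Acsl4 held 4.83 ± 0.60% and 5.84 ± 0.78%, and these shares overlapped, because WT replicate 1 was at 5.63%. Acsl6 was at or below 0.60 CPM in every library.

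**Figure D3:**
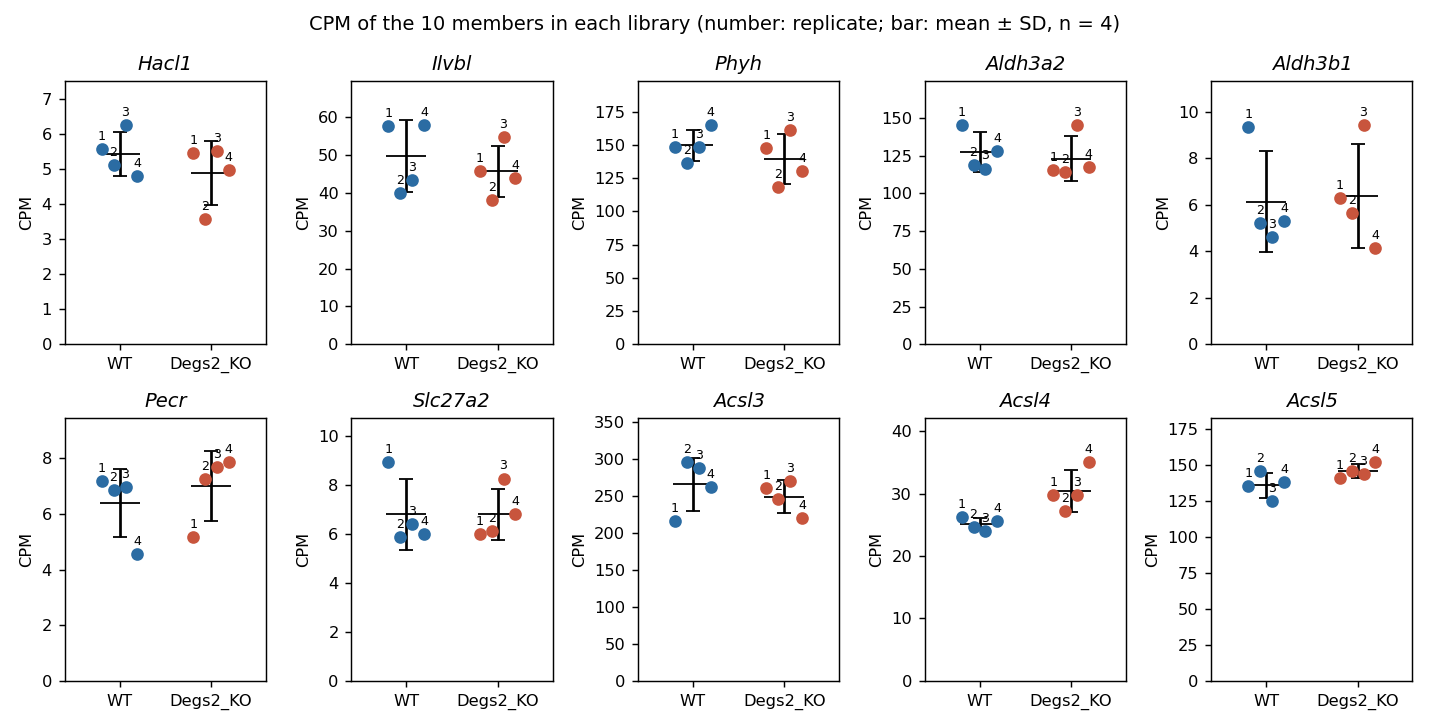
CPM of each gene in each library (points, numbered by replicate), WT in blue and Degs2_KO in red, with the mean and SD (n = 4) in black; each vertical axis starts at 0. The groups overlap for every gene except Acsl4, where WT lies at 24.1 to 26.3 CPM and Degs2_KO at 27.2 to 35.1 CPM.

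Several members varied between libraries of 1 genotype more than between the genotypes. WT replicate 1 and Degs2_KO replicate 3 were the 2 highest libraries for 3 of the 10 genes, Aldh3a2, Aldh3b1 and Slc27a2, and the 2 lowest for 0. Over all tested genes they were the 2 highest for 17.8% and the 2 lowest for 16.6%, so that many other genes showed the same pattern. The same 2 libraries also had the highest sums of 5 marker lists and the lowest of the distal colon position list. One of the 5, the absorptive colonocyte list, summed to 11390.5 and 12085 CPM in them against 6070 to 10435 CPM in the other 6, but through Car1 alone (6179 and 6570 CPM against 522 to 1941 CPM). Its other 7 genes summed to 5211 and 5515 CPM there, the lowest values, against 5548 to 8494 CPM. Of these 7, only Slc20a1 and Ceacam20 were lowest in both libraries, while Guca2a was at 725 and 870 CPM against 323 to 874 CPM. Of the other 4 lists, the small intestine and proximal gut list summed to 720 and 699 CPM against 168 to 381 CPM. Of its genes, Fabp2, Fabp6, Sis, Slc10a2 and Osr2 were highest in these 2 libraries, but Apob, Gata4 and the rest were not. The tuft cell list stood at 86.8 and 86.7 CPM against 36.9 to 57.1 CPM, and the T cell list at 29.3 and 22.4 CPM against 6.85 to 18.3 CPM. Cd3e, Cd3g, Cd8a and Ptprc of the T cell list were highest in these 2 libraries, but Cd3d and Cd4 were not. The enteroendocrine list stood at 233 and 328 CPM against 82.2 to 172 CPM. Of its genes, Chga, Chgb, Gcg and Cck were highest in these 2 libraries, but Neurod1 and Pyy were not. Chgb was at 117 and 175 CPM against 26.0 to 70.5 CPM, and Pyy at 20.4 and 20.8 CPM against 18.8 to 37.4 CPM. The part of these cells or of position along the gut in the values of the 3 genes was not tested. Without these 2 libraries the log2 fold changes of Aldh3a2, Aldh3b1 and Slc27a2 between the genotypes were -0.06, 0.09 and 0.06.

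**Figure D4:**
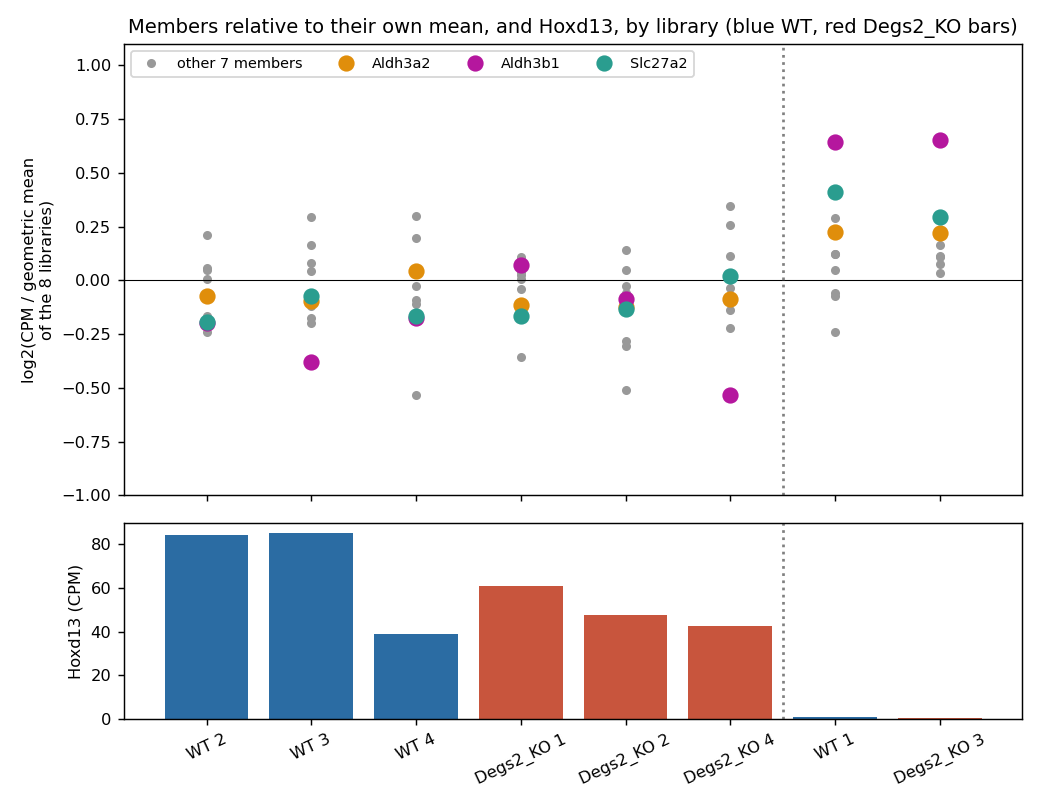
Upper panel, log2 of CPM over the gene's geometric mean of 8 libraries, for Aldh3a2, Aldh3b1 and Slc27a2 (large points) and the other 7 genes (grey); lower panel, Hoxd13 in CPM. WT replicate 1 and Degs2_KO replicate 3, right of the dotted line, have Hoxd13 at 0.699 and 0.312 CPM and the highest values of the 3 coloured genes.

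For the 3 members that varied most, the genes with the nearest pattern were found by the root mean square difference of centred log2 CPM over 8 libraries, among 9240 genes. Nearest to Aldh3b1 were Vat1, Ttyh2 and Cacnb3, with differences of 0.10, 0.11 and 0.14 against 0.41 for a flat profile. Vat1 was at 76.1 and 73.8 CPM in WT replicate 1 and Degs2_KO replicate 3 and at 35.2 to 44.0 CPM in the others. Nearest to Hacl1 were Hist2h2be, Zfp976 and Ktn1 (0.08, 0.10 and 0.10 against 0.22), and nearest to Pecr were Fbxo21, Dut and Prim1 (0.09, 0.10 and 0.11 against 0.26). Dut and Prim1 act in nucleotide supply and DNA replication, and both were lowest in WT replicate 4, at 13.7 and 8.52 CPM. Both were next lowest in Degs2_KO replicate 1, at 17.4 and 10.5 CPM. They had been picked for their likeness to Pecr, which was low in the same libraries.

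Promoter sequences of the 3 members that were high in the same 2 libraries, and of Acsl4, are shown because these 4 genes carry the patterns described. Each covers 250 bases before to 50 after a RefSeq start on GRCm38.p6, 5′ to 3′ in the direction of transcription; all 10 genes matched the RefSeq table. Capitals mark matches on either strand to the motifs searched. The first was AGGTCA, the half-site of nuclear receptors. The second was AATAAA, a core bound by Cdx and posterior Hox proteins. The last was GATAAG, a core of GATA factors. No matches overlapped in these windows. The windows are chr19:3929729-3930028 (minus strand) for Aldh3b1, chr2:126552774-126553073 (plus) for Slc27a2, chr11:61267137-61267436 (minus) for Aldh3a2 and chrX:142390486-142390785 (minus) for Acsl4.
Aldh3b1: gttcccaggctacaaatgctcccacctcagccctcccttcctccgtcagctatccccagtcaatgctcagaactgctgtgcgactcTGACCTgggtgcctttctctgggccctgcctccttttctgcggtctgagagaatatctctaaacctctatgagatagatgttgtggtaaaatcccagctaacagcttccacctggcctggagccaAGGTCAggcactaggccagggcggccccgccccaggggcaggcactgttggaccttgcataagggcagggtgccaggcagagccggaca
Slc27a2: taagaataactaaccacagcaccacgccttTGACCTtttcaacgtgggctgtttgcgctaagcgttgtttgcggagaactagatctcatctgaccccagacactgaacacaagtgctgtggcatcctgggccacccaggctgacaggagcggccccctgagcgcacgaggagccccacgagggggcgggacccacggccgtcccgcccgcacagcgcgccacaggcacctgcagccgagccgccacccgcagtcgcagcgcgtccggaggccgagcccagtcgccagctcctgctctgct
Aldh3a2: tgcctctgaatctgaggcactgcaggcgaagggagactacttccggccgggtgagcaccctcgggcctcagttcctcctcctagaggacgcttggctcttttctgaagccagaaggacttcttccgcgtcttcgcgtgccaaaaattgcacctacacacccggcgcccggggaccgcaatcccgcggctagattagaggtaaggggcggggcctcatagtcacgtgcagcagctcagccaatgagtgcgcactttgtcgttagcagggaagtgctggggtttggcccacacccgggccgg
Acsl4: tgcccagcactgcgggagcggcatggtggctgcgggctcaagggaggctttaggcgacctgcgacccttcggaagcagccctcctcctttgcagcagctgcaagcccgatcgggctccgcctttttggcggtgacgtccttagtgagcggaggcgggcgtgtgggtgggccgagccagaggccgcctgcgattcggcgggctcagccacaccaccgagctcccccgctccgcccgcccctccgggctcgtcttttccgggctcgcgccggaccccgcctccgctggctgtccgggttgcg
Aldh3b1 held 2 AGGTCA matches, 1 on each strand, and Slc27a2 held 1, while these letters were not in the windows of Aldh3a2 and Acsl4. AGGTCA was also in windows of Ilvbl and Phyh, which were not among the 3 genes high in those libraries. Of 32851 RefSeq windows of the same length, 16.3% held AGGTCA, 19.6% AATAAA and 7.44% GATAAG. The Acsl4 window had a GC content of 71.7% with 33 CpG dinucleotides and the Aldh3b1 window 58.7% with 6, where the median over all windows was 52.7% and 7. A match is a description of letters and not evidence of binding.

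The wider pathway was described from 8 lists of 73 genes, of which 61 were tested. edgeR called 0 of the 61 (0.0% of all genes), and 0 had an unadjusted p under 0.05 (1.13% of all genes); 27 had a log2 fold change above 0 and 34 below, with a median of -0.01. Without both WT replicate 1 and Degs2_KO replicate 3, 3 of the 61 had an unadjusted p under 0.05 by edgeR, and 0 were called. Over all genes tested then, 650 of 16214 had one under 0.05. The 3 were Aldh3b2 (0.34), Hao2 (-0.34) and Slc19a2 (-0.25 on the log2 scale). The entry steps from phytoceramide to the aldehyde had 4 of 9 tested genes above 0 (median -0.02). Acer2, a ceramidase of the Golgi, averaged 13.9 ± 0.71 CPM (SD, n = 4) in the WT libraries and 15.2 ± 0.75 CPM in the mutant ones, a log2 fold change of 0.13 ± 0.08. Asah2, the neutral ceramidase of the gut surface, had a log2 fold change of -0.10 ± 0.09. Means of the lyase gene Sgpl1 were 137 (WT) and 130 (Degs2_KO) CPM and those of the kinase gene Sphk2 83.9 and 76.2 CPM, while Sphk1, at 0.0957 and 0.0656 CPM, did not pass the filter.

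Relatives of the dehydrogenases had 2 of 4 tested genes above 0, with Aldh3b2 at 0.25 ± 0.12 and Aldh2, the mitochondrial acetaldehyde dehydrogenase, at -0.14 ± 0.21 on the log2 scale. For Aldh3b2 the WT libraries spanned 10.98 to 15.4 CPM and the Degs2_KO libraries 14.1 to 17.3 CPM, with overlap. Relatives of the synthetases had 4 of 7 above 0 (median 0.005), with Acsl1 at 0.15 ± 0.14 and Slc27a3 at 0.33 ± 0.24. The list named for 2-hydroxy fatty acid supply and use had 1 of 4 above 0, Tecr at 0.04 ± 0.09 (median -0.18). Fa2h, in the same list, was at -0.05 ± 0.21. Hao2 of this list, a peroxisomal 2-hydroxy acid oxidase, averaged 430 ± 122 CPM (SD, n = 4) in WT and 347 ± 75.9 CPM in Degs2_KO. Its log2 fold change was -0.31 ± 0.24. Phyhd1, a relative of Phyh, had a log2 fold change of -0.46 ± 0.25 with means of 1.15 (WT) and 0.836 (Degs2_KO) CPM. None of these passed.

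The peroxisomal steps after alpha-oxidation had 4 of 13 tested genes above 0 (median -0.01), with Amacr, the racemase of branched acyl-CoAs, at -0.10 ± 0.13 and the oxidase gene Acox3 at -0.07 ± 0.09. Peroxisomal import and transport had 6 of 13 above 0 (median -0.02), with Pex14, a docking protein of matrix protein import, at -0.08 ± 0.07 and Abcd4 at -0.12 ± 0.11. Thiamine supply, which provides the cofactor of the lyases, had 3 of 5 above 0 (median 0.004). In that list the thiamine transporter gene Slc19a2 had a log2 fold change of -0.17 ± 0.14 and Slc44a4, a carrier of thiamine pyrophosphate in the colon, -0.10 ± 0.12. The use of propionyl-CoA, the end product of odd-chain fatty acids, had 3 of 6 above 0 (median 0.02), with Pcca, a subunit of propionyl-CoA carboxylase, at 0.09 ± 0.06 and the epimerase gene Mcee at 0.07 ± 0.08. Log2 fold changes over the 61 genes ran from -0.46 for Phyhd1 to 0.33 for Slc27a3.

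**Figure D5:**
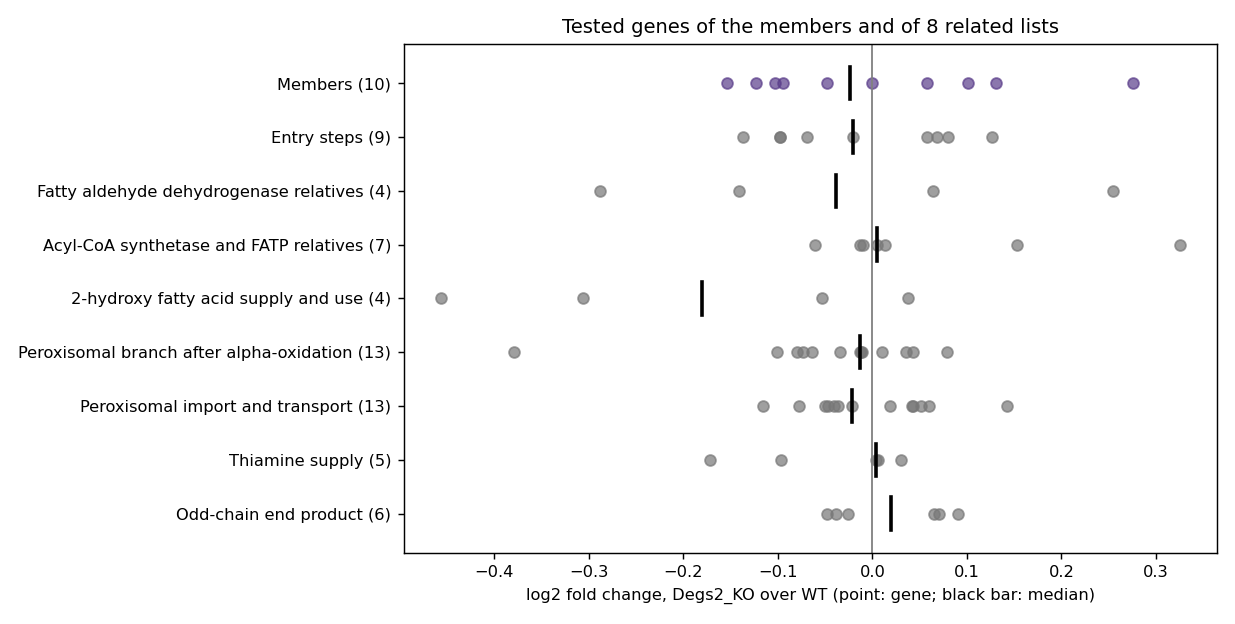
Log2 fold change (Degs2_KO over WT) of each tested gene (points) of the 10 genes and of 8 related lists, with the median as a black bar and the number of tested genes in parentheses. Medians lie close to 0 except for the list named for 2-hydroxy fatty acid supply and use (4 genes, Tecr among them), at -0.18.

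In GRCm38, the assembly called mm10, Hacl1 lies on chromosome 14 from 31598730 to 31641286, Ilvbl on chromosome 10 from 78574346 to 78584502 and Phyh on chromosome 2 from 4919019 to 4938730. Aldh3a2 lies on chromosome 11 from 61223417 to 61267464 and Aldh3b1 on chromosome 19 from 3913491 to 3929808. Pecr lies on chromosome 1 from 72259167 to 72284314, Slc27a2 on chromosome 2 from 126552407 to 126588243 and Acsl3 on chromosome 1 from 78657825 to 78707743. Acsl4 lies on the X chromosome from 142317993 to 142390535 and Acsl5 on chromosome 19 from 55251938 to 55297720. These are whole-gene spans in GENCODE M21; all 10 are protein-coding genes.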

How the data were processed

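Per the file headers, the authors deposited an estimated count for each gene in each library, with a status word. The submitters' processing notes name mm10 as the build and, among the tools, TopHat2 2.0.10, cutadapt 1.9, Cuffdiff and Cufflinks 2.1.1; annotation and strand setting were not given in the sources used here. Low values were multiples of 1 step per library (0.871 to 1.31), and 97.0% to 97.3% of values up to 100 fragments came out whole within 0.02. Undoing the step gave 32827408 to 49823641 fragments per library.

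Of 54141 genes, 47 with a failed estimate in at least 1 library (each such value is listed at 0) were left out. Counts were rounded and tested with edgeR 4.0.16 in R 4.3.3 (filterByExpr with a minimum count of 10 and total of 15, TMM, 2-sided quasi-likelihood test, Benjamini-Hochberg adjustment over 16132 genes at 0.05). CPM are TMM-normalized. log2 CPM used a prior count of 2. Lengths and positions came from GENCODE M21 on GRCm38. Replicates within a group differed by far more than sampling noise, and 0 libraries were merged. The test was tried on simulated counts drawn independently for each gene and library. These lacked the shared pattern of WT replicate 1 and Degs2_KO replicate 3, so they cannot show how the test performs with it.

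The 10 genes, the lists and the tests were chosen with earlier results of these data known. Named genes are the 10 genes, from each list those called or, with none called, the 2 with the smallest unadjusted p, and the 3 nearest patterns (mean log2 CPM of at least 3) of the 3 most variable members. Other genes named were chosen after their values were seen. The alternatives comprised DESeq2 1.42.0, limma-trend (limma 3.58.1), size factors by median of ratios, no scaling beyond library totals, other filters, a replicate block, 1 surrogate variable (sva 3.50.0), the scaling undone, and libraries left out.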

Additional observations from a re-analysis of the deposited data

Results flagged for a closer look

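In 54 groups of 4 libraries (the 10 genes, the 16 genes named from the lists and Degs2, each in WT and Degs2_KO), 8 had a highest or lowest library whose gap to the nearest other was large for the group's range (Dixon's 95% critical value); chance flags about 1 in 20 groups. Aldh3a2 was at 145.2 CPM in Degs2_KO replicate 3 and at 114 to 118 CPM in the other Degs2_KO libraries. Aldh3b1 was at 9.37 CPM in WT replicate 1 and at 4.61 to 5.32 CPM in the other WT libraries, and Slc27a2 was at 8.96 CPM there against 5.88 to 6.40 CPM. Slc19a2 was likewise highest in WT replicate 1, at 14.2 CPM against 12.0 to 12.1 CPM. Pecr was at 4.56 CPM in WT replicate 4 and at 6.86 to 7.18 CPM in the other WT libraries, and Slc44a4 was at 610.8 CPM there against 456 to 468 CPM. Pex14 was at 34.6 CPM in Degs2_KO replicate 2 against 30.6 to 31.0 CPM, and Mcee was at 25.7 CPM in WT replicate 3 against 23.1 to 23.6 CPM. Of these 8, 4 fell on WT replicate 1 or Degs2_KO replicate 3.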

How the results depend on the processing

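Under 18 alternatives none of the 10 genes and none of the tested pathway genes was called, and 7 of the 10 kept their direction under every alternative. The exceptions were Aldh3a2 and Aldh3b1, which turned only when a library was left out, and Slc27a2. Leaving out 1 library gave log2 fold changes from -0.14 to 0.031 for Aldh3a2, from -0.19 to 0.34 for Aldh3b1 and from -0.11 to 0.17 for Slc27a2. Slc27a2 was also above 0 with median-of-ratios size factors (0.0018), DESeq2 (0.0019), limma-trend (0.0093), no filter (0.011), the replicate block (0.011), the scaling undone (0.0015) and with WT replicate 1 and Degs2_KO replicate 3 both left out (0.058). Acox3 ranged from -0.12 to 0.017 and Slc44a4 from -0.14 to 0.016, each above 0 only without WT replicate 4. Over the whole table DESeq2 called 2 genes, Degs2 and Dlk1, and edgeR with 1 surrogate variable called 1, Degs2; the cause was not tested. The replicate number did not pair the libraries (same-number correlations -0.43, 0.44, -0.56 and -0.10), and with that block edgeR called 0 genes and gave Acsl4 a log2 fold change of 0.27. Genes at an unadjusted p under 0.05 numbered 99 with the replicate block, 434 with the surrogate variable and 401 with no filter, against 183. With 1 library left out they numbered 133 to 782. Of the 61 pathway genes there were 2 without WT replicate 1, beside 782 of all genes. Without Degs2_KO replicate 3 there were 2, beside 292. With the surrogate variable there was 1, beside 434, against 0 in the main fit. Leaving out 1 library also moved Acsl3 between -0.17 and -0.04 and Acsl5 between 0.06 and 0.14. With the longest transcript as length, 6 genes kept their rank. Of 220 mean levels per kb recomputed, 205 moved by less than 1 SD and the 15 others moved with the longest transcript. With 4 libraries per genotype the median SE of a log2 fold change over all tested genes was 0.16, which limits the size of difference that could be called.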

Other observations

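Aldh2 and Hao2, both named from the lists, were lowest in the 2 libraries in which Aldh3a2, Aldh3b1 and Slc27a2 were highest. Aldh2 was at 545 CPM in WT replicate 1 and 563 CPM in Degs2_KO replicate 3, and at 780 to 1019 CPM in the other 6. Hao2 was at 268 and 248 CPM in them and at 355 to 549 CPM in the other 6. Over all tested genes these were the 2 lowest libraries for 16.6% and the 2 highest for 17.8%. Other genes of the lists were highest there. Among them were Aldh1a1 (278 and 246 CPM against 17.4 to 73.4 CPM) and Adh5 (91.0 and 97.8 CPM against 41.4 to 46.2 CPM).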
